A study of Homo sapiens with 18 samples.

Results

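Transcript levels of 36 integrin and focal adhesion genes were followed across 6 groups of human cell line libraries. The genes were taken by symbol from a list of integrin chains and focal adhesion proteins. They comprise 11 integrin alpha chains, 7 integrin beta chains and 18 proteins of the cytoplasmic side of the adhesion, out of 37302 gene identifiers listed in any of the 3 deposited tables. In the table of SW480-P and SW480-LM3, 33 of the 36 had values and 32 reached 1 or more in at least 3 of the 6 libraries, the condition for being tested. For LX-2 these numbers were 36 and 32, and for LV5 they were 35 and 29. ITGA4, ITGA11 and ITGB3 in the first table and ITGA4 in the LV5 table were not analysed here.

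The 18 libraries were made from poly(A) RNA, 3 per group. SW480 is a line of human colorectal carcinoma cells, SW480-P is the parental culture, and SW480-LM3 came from it through spleen injection and selection in 3 rounds, a route by which tumour cells reach the liver. LX-2, a line of human hepatic stellate cells, was incubated for 48 hours with vesicles that contained NID1 (EV-XP-NID1-LX-2) or with control vesicles (EV-XP-LX-2). LV5-NID1 is SW480 made to overexpress NID1 and given GW4869, which blocks neutral sphingomyelinase and so reduces vesicle output, for 72 hours, and LV5 is its control. NID1 encodes nidogen 1, a basement membrane protein that joins laminin to collagen IV networks and can itself be bound by integrins. The labels explain neither the letters XP nor whether LV5 received GW4869, so overexpression and inhibitor cannot be told apart in LV5-NID1. They also do not say whether the 3 libraries of a group came from separate cultures. The p-values therefore set each difference against a spread between libraries that may be technical.

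An integrin is a receptor made of an alpha chain and a beta chain that binds matrix proteins such as collagen, laminin or fibronectin. On the cytoplasmic side talins and kindlins bind the beta tail and switch the receptor on, the kinases FAK and SRC and their docking proteins signal from it, and vinculin, zyxin, alpha-actinins and tensins tie it to actin. In gut epithelium the pair of ITGA6 and ITGB4 anchors cells to laminin in hemidesmosomes, while hepatic stellate cells hold collagen and fibronectin through pairs that contain ITGB1 and use ITGAV pairs to activate latent TGF-beta.

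Upstream sequences are shown for the members with the largest differences between SW480-LM3 and SW480-P, since they are the stretches a reader would want beside those values. They were read from RefSeq (GRCh38.p14), whose promoter table held 27 of the 36 genes. Among genes with an entry and at least 150 bases free of annotated exons, those taken were the 3 that rose most and the 3 that fell most. Each stretch starts 250 bases before the first listed start and is written 5′ to 3′ on the strand of its gene, up to the first annotated exon; positions are counted back from the start. Capitals mark matches on either strand to 4 motifs: TGANTCA (AP-1), GGAATG (TEAD), GGGCGG (Sp1 GC box) and CAGGTG (E-box bound by ZEB and SNAI repressors).
ITGB7, chr12:53207308-53207501, minus strand: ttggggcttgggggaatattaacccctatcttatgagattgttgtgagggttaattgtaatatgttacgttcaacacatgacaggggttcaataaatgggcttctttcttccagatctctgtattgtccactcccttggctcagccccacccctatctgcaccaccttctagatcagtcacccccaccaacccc
TNS3, chr7:47582587-47582836, minus strand: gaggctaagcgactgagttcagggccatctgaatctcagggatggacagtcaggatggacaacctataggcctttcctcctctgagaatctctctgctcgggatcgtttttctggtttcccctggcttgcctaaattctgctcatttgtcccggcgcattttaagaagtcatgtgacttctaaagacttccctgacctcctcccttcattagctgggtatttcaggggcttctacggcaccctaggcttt
BCAR1, chr16:75268054-75268257, minus strand: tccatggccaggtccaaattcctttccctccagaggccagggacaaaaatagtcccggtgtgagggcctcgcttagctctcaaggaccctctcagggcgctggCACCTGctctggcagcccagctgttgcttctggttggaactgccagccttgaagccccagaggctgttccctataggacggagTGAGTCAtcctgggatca
ITGA1, chr5:52787666-52787895, plus strand: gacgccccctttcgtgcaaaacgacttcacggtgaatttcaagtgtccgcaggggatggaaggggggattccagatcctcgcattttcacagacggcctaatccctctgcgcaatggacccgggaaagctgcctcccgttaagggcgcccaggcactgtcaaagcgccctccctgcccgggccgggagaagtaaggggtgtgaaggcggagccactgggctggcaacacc
FERMT2, chr14:52951098-52951300, minus strand: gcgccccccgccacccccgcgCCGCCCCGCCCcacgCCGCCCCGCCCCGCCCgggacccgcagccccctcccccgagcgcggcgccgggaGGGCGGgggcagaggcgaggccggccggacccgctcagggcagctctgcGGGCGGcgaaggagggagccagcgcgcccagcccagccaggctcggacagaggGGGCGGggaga
ITGB1, chr10:32958233-32958480, minus strand: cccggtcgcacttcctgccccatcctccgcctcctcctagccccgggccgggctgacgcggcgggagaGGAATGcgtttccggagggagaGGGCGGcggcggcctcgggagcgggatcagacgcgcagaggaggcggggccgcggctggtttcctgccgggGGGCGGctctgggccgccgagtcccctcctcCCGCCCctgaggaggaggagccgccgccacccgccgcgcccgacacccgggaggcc
BCAR1 held an AP-1 element at position -64 and an E-box at position -147 from the start. FERMT2 held 8 GC boxes, and those at -229 and -224, and at -214, -209 and -204, share bases with their neighbours. ITGB1 held 1 TEAD match at -182 and GC boxes at -160, -89 and -58. The printed stretches of ITGB7, TNS3 and ITGA1 held no match to these letters. Over the 250 bases before the start, AP-1 elements stood in 2 of the 27 member promoters and in 6.57% of 35116 promoters, and TEAD matches in 4 of 27 and 11.9%. GC boxes stood in 15 of 27 and 42.6%, and the E-box in 5 of 27 and 17.5%. Members were counted at their first listed start only, whereas the 35116 promoters include every listed start of a gene, so these shares differ in unit. These matches describe letters and are not evidence of binding.

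The libraries themselves were checked first. The table of SW480-P and SW480-LM3 holds a signal that equals whole reads divided by 1 factor per library, with 15504205 to 18965163 recovered reads in SW480-P and 15531517 to 16586016 in SW480-LM3. It is not corrected for gene length, so members are not ranked by level in it. The LX-2 and LV5 tables hold TPM, transcript levels corrected for length and scaled to 1 common total per library, and the depth behind them is unknown. NID1 read 348, 352 and 379 TPM in LV5-NID1 against 0, 0.04 and 0.02 TPM in LV5, and 18.0 to 22.6 TPM with NID1 vesicles against 25.1 to 26.0 TPM with control vesicles. Its signal read 44.7, 49.1 and 46.9 in SW480-LM3 against 0.57, 0.582 and 0.352 in SW480-P. EV-XP-LX-2 libraries held VIM at 1887 and COL1A1 at 203 TPM, but LRAT, a marker of quiescent stellate cells, at 0.01 TPM. Of the epithelial markers EPCAM read 0.0867 TPM there, whereas KRT18 read 199 and KRT8 54.8 TPM. LV5 held KRT8 at 780 and EPCAM at 5.03 TPM, with CDH1 at 0.623, VIL1 at 0.187 and CDX2 at 0.177 TPM. By rank over 14744 genes SW480-P resembled LV5 with a Spearman rho of 0.886 and LX-2 with 0.794. SW480-LM3 resembled LV5 with 0.694 and LX-2 with 0.713. These ranks set a signal that is not corrected for length against TPM, and the part of that mismatch in the rhos was not tested. From these data change in selection and origin in another line cannot be told apart. Some libraries stood apart. EV-XP-NID1-LX-2 replicate 2 was the lowest of its group in 28 of 32 tested members, and LV5 replicate 3 in 23 of 29. The deviation of LV5-NID1 replicate 3 from its group ran against GC content (r = -0.525 across genes, against 0.49 and 0.336 for replicates 1 and 2).

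Between SW480-LM3 and SW480-P the members with the highest log2 rise were ITGB4 (5.43), the beta chain of hemidesmosomes, ITGB7 (5.25), a chain of lymphocyte receptors, and TNS3 (4.23), a tensin. Those that fell most were ITGA1 (-2.92), a collagen receptor chain, and FERMT2 (-2.88), a kindlin. The 29 members called, of 32 tested, made up a share close to that of all genes. Of the 32 tested members, 21 were higher and 8 lower by limma at a Benjamini-Hochberg adjusted p under 0.05 over all genes tested. The 21 are 65.6% of the members, against 43.9% of all genes called in each direction and 87.8% in either. The groups did not overlap in 29 of 32 members, against 87.6% of all genes. By at least 1 on the log2 scale 15 members were higher and 6 lower, against 23.9% and 21.4% of all genes. The median log2 fold change of the members was 0.86, against -0.004 over all genes. When values were divided by library totals, the all-gene median moved to 0.259, and 24 members were higher and 7 lower. With trends on GC content and length removed, 18 members were higher and 10 lower, and TNS1 was among the lower. That setting moved the fold change itself, not its log2, by more than 1.5 times in 14 of the 29 called members. Any setting did so for 17. In these bulk libraries fewer cells with a transcript and less of it per cell cannot be told apart.

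**Figure D1:**
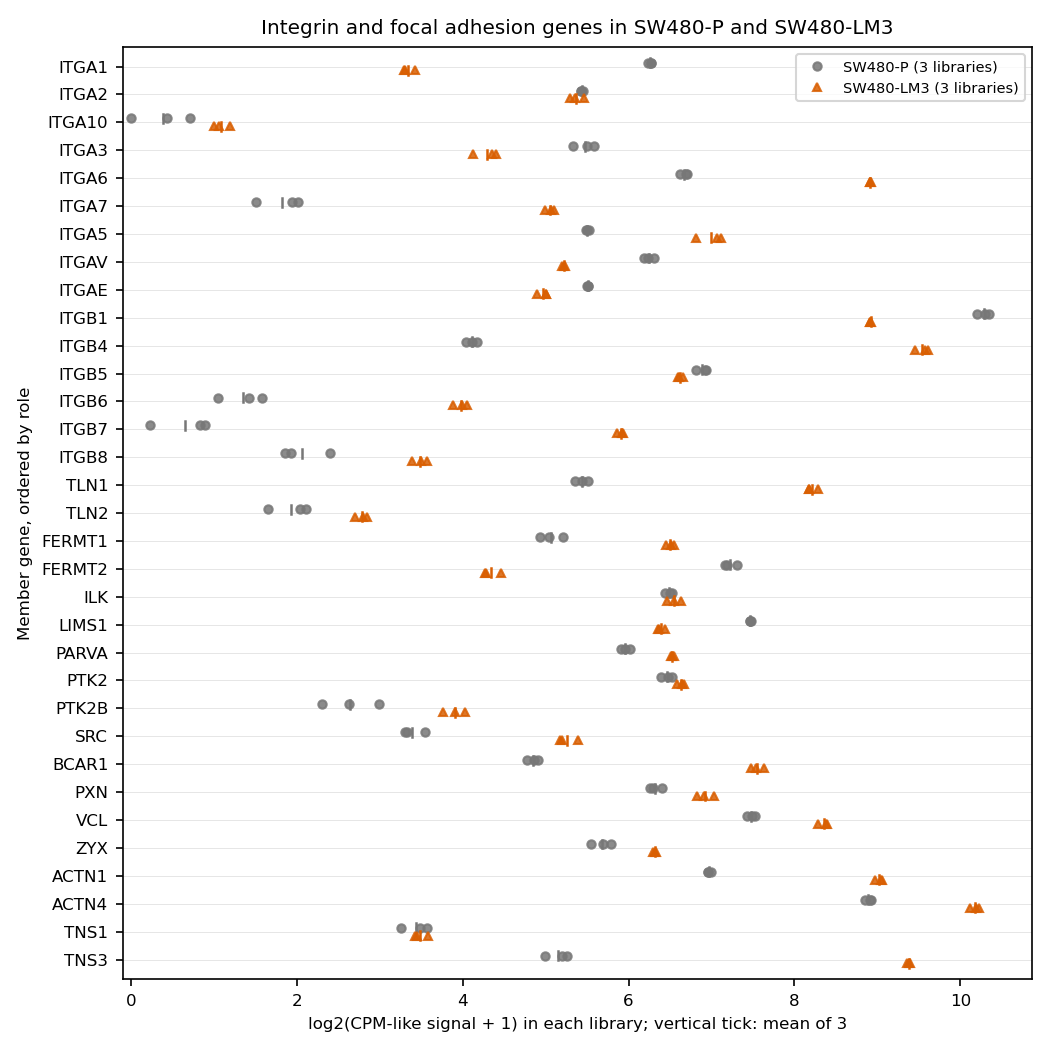
Signal of each tested or listed integrin and focal adhesion gene in the 3 SW480-P libraries (grey circles) and the 3 SW480-LM3 libraries (orange triangles), as log2 of the signal plus 1, with a tick at each group mean. ITGB4 moved from 16.3 to 746 and ITGB1 from 1245 to 483, and in ITGA2, ILK and TNS1 the groups overlapped.

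Among the chains that bind laminin, ITGA6 and ITGA7 rose and ITGA3 fell in SW480-LM3. ITGA6, the hemidesmosomal alpha chain, read 97.7, 103 and 102 in the SW480-P libraries and 478, 484 and 480.0 in the SW480-LM3 libraries, 4.76-fold higher (log2 2.24, SE 0.04, limma adjusted p = 2.78e-16). Every SW480-LM3 library thus stood above every SW480-P library, as in the next gene. ITGA7, best known from muscle, read 2.85, 3.03 and 1.83 against 33.4, 32.5 and 30.9, 12.6-fold higher (log2 3.24, SE 0.13, adjusted p = 6.91e-12). ITGA3, which pairs with ITGB1 on epithelial laminins, read 44.4, 46.8 and 39.3 against 16.5, 20.2 and 19.4, 2.33-fold lower (log2 -1.18, SE 0.09, adjusted p = 8.41e-09). All 3 SW480-LM3 libraries lay below the SW480-P range in ITGA3. With GC and length trends removed ITGA7 stood at log2 2.41 and ITGA3 at -2.21, and a pseudocount of 5 put ITGA7 at 2.3.

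Collagen-binding chains did not move together. ITGA1, a collagen IV receptor chain, read 74.0, 76.5 and 76.3 in SW480-P and 8.84, 8.78 and 9.76 in SW480-LM3, 8.28-fold lower (log2 -2.92, SE 0.07, adjusted p = 2.06e-14). PELO, a ribosome rescue factor whose exons overlap those of ITGA1, fell less, from 54.2 to 35.2. ITGA2, the other main collagen receptor chain of epithelia, read 41.9 to 42.6 against 38.3 to 42.9 and was not called (adjusted p = 0.337), though library-total scaling called it higher (log2 0.22, adjusted p = 0.00415) and quantile normalization called it lower (log2 -0.17, adjusted p = 0.0192). ITGA10 read 0, 0.641 and 0.352 against 1.28, 0.995 and 1.09 and was too low to be tested.

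The chains that recognise RGD motifs moved in opposite directions. ITGA5, the fibronectin receptor chain, read 45.1, 44.1 and 43.8 in SW480-P and 111, 133 and 137 in SW480-LM3 (log2 1.49, SE 0.07, adjusted p = 1.98e-11). ITGAV, the partner of ITGB3, ITGB5, ITGB6 and ITGB8, read 71.5, 74.6 and 78.0 against 36.2, 35.8 and 36.6 (log2 -1.02, SE 0.05, adjusted p = 1.28e-10). Neither gene had overlapping groups, and with GC and length trends removed ITGA5 stood at log2 0.80. ITGAE, the chain that with ITGB7 binds E-cadherin on intraepithelial lymphocytes, read 44.2 to 44.7 against 28.9 to 31.1 (log2 -0.54, SE 0.06, adjusted p = 9.19e-07).

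Among beta chains, ITGB4, ITGB6, ITGB7 and ITGB8 rose and ITGB1 and ITGB5 fell. ITGB4, the long-tailed hemidesmosomal chain, read 17.1, 16.3 and 15.4 in SW480-P and 700.3, 778 and 759 in SW480-LM3, 45.9-fold higher (log2 5.43, SE 0.05, adjusted p = 2.16e-18). ITGB1, the partner of most alpha chains, read 1175, 1259 and 1302 against 482, 485 and 482, 2.58-fold lower (log2 -1.36, SE 0.04, adjusted p = 4.01e-14). The ratio of the ITGB4 to the ITGB1 signal was therefore 0.0131 ± 0.00135 in SW480-P and 1.54 ± 0.0795 in SW480-LM3 (SD, n = 3), a change of 118-fold. For ITGA6 over ITGB1 the ratio changed 12.3-fold. These signals are not per length, so only the change of a ratio is read. ITGB7, a lymphocyte homing receptor chain, read 0.854, 0.175 and 0.775 against 57.2, 60.0 and 59.5, 98.0-fold higher (log2 5.25, SE 0.15, adjusted p = 1.44e-13). It passed the filter through the SW480-LM3 libraries alone, so that it differed is partly set by the filter. ITGB6, the epithelial partner of ITGAV, read 1.07, 1.69 and 1.97 against 15.6, 13.7 and 14.9, 9.35-fold higher (log2 2.63, SE 0.15, adjusted p = 2.37e-10). ITGB8, another partner of ITGAV that presents latent TGF-beta, rose 3.15-fold. ITGB5, the vitronectin receptor chain, read 111 to 121 against 95.5 to 100.2 (log2 -0.27, SE 0.05, adjusted p = 7.29e-05), and with library-total scaling its direction turned (log2 0.02, adjusted p = 0.723). Removal of GC and length trends put ITGB4 at log2 4.30 and ITGB5 at -0.87, and quantile normalization put ITGB1 at -0.77. ITGB7, close to 0 in SW480-P, ranged from log2 3.51 with a pseudocount of 5 to 6.66 with edgeR or DESeq2 on the recovered reads, and that pseudocount put ITGB6 at 1.59.

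Epithelial and leukocyte markers were read beside these chains. Epithelial markers were called higher in 6 of the 7 with values, against 43.9% of all genes called in each direction. Their summed signal went from 3522 to 3790 per library in SW480-P to 13175 to 13887 in SW480-LM3. Leukocyte markers, listed because ITGB7 and ITGAE are best known from leukocytes, had values for 3 of 7, with 1 higher and 1 lower, and summed to 20.6 to 24.1 in SW480-P and 24.2 to 26.0 in SW480-LM3. Within that list LYZ read 0 to 0.466 against 6.09 to 7.68, and it passed the filter through the SW480-LM3 libraries alone. CD68 was called lower, from a mean of 20.8 to 16.9. ITGB2, the shared chain of leukocyte integrins, read 0.916 to 1.92 against 0.761 to 1.51 and was not called. The part of these markers in the changes of the integrin chains was not tested.

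Among activators of the beta tail, TLN1 and FERMT1 rose in SW480-LM3 and FERMT2 fell. TLN1, the widely expressed talin, read 44.6, 42.4 and 40.0 in SW480-P and 288, 310.3 and 289 in SW480-LM3, 6.99-fold higher (log2 2.78, SE 0.05, adjusted p = 8.74e-16). FERMT1, the kindlin of epithelia, read 29.5, 35.9 and 31.9 against 90.2, 92.6 and 86.2 (log2 1.44, SE 0.07, adjusted p = 3.01e-11). FERMT2, the kindlin of mesenchymal and most other adherent cells, read 142, 144 and 158 against 18.2, 18.5 and 21.0, 7.69-fold lower (log2 -2.88, SE 0.07, adjusted p = 9.25e-15). The groups did not overlap in any of these 3 genes. The ratio of FERMT1 to FERMT2 signal was 0.220 ± 0.0255 in SW480-P and 4.69 ± 0.512 in SW480-LM3, a change of 21.3-fold. TLN1 stood at log2 1.66 with GC and length trends removed.

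The complex of ILK, PINCH and parvin did not move as a unit. ILK, the pseudokinase at its centre, read 85.9 to 90.8 against 86.9 to 98.3 and was not called (adjusted p = 0.287), although quantile normalization and library-total scaling called it higher. LIMS1, which encodes PINCH1, read 175 to 177 against 80.6 to 85.9 (log2 -1.08, SE 0.04, adjusted p = 2.67e-12). Near-identical copies make LIMS1 uncertain: LIMS3 read 18.7 to 20.6 in SW480-P and 0 in each SW480-LM3 library, and LIMS3L read 10.6 to 15.1 against 1.17 to 1.52. PARVA, alpha-parvin, read 58.9 to 63.7 against 90.3 to 92.6 (log2 0.57, SE 0.05, adjusted p = 2.93e-08). TLN2, the talin of muscle and brain, read 2.14 to 3.31 against 5.50 to 6.18, and its direction turned when trends with GC content and length were removed (log2 -0.13, adjusted p = 0.408).

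All 5 kinases and docking adaptors were higher in SW480-LM3, by unequal amounts. BCAR1, the docking protein p130Cas, read 28.1, 28.9 and 26.4 in SW480-P and 176, 198 and 185 in SW480-LM3, 6.70-fold higher (log2 2.70, SE 0.06, adjusted p = 3.51e-15). SRC read 8.90, 10.7 and 9.02 against 35.6, 41.1 and 35.0, 3.91-fold higher (log2 1.86, SE 0.10, adjusted p = 9.42e-11). PTK2B, the FAK relative PYK2, read 3.95 to 6.93 against 12.6 to 15.3, 2.61-fold higher. PTK2 itself, which encodes FAK, read 82.9 to 90.9 against 95.1 to 101, 1.13-fold higher (log2 0.17, SE 0.05, adjusted p = 0.00414). PXN, the scaffold paxillin, read 75.3 to 83.9 against 112 to 130 (log2 0.61, SE 0.06, adjusted p = 1.28e-07), but was called lower when trends with GC content and length were removed (log2 -0.38, adjusted p = 9.88e-06). So 4 of these 5 were higher under every alternative run, and PXN was the exception. With those trends removed BCAR1 stood at log2 1.71, SRC at 1.00 and PTK2B at 0.53.

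Of the 6 actin linkers 5 rose and 1 was not called. TNS3, a tensin that binds beta tails, read 37.4, 35.6 and 30.9 in SW480-P and 653, 668 and 673 in SW480-LM3, 19.2-fold higher (log2 4.23, SE 0.06, adjusted p = 7.08e-17). TNS1, its relative, read 8.53 to 10.8 against 9.77 to 11.0 (adjusted p = 0.653), and was called lower with GC and length trends removed (log2 -1.11, adjusted p = 9.06e-08) but higher with library-total scaling (log2 0.32, adjusted p = 0.0181). ACTN1 and ACTN4, the alpha-actinins of non-muscle cells, rose 4.17-fold and 2.44-fold, ACTN1 from a mean of 124 to 519 and ACTN4 from 474 to 1159. With GC and length trends removed ACTN4 stood at log2 0.41, against 1.29 otherwise, and TNS3 at 3.26. VCL, vinculin, read 171 to 184 against 311 to 335 (log2 0.87, SE 0.04, adjusted p = 2.60e-11). ZYX, zyxin, read 45.5 to 54.2 against 77.4 to 79.2 (log2 0.64, SE 0.06, adjusted p = 1.33e-07), and was not called with GC and length trends removed (log2 0.04, adjusted p = 0.422).

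Further adhesion genes of SW480-LM3 are read against the 43.9% of all genes called in each direction. Of 7 hemidesmosome genes, which surround ITGA6 and ITGB4, 6 were higher and 1 lower. PLEC, plectin, which links ITGB4 to keratin, read 95.2 to 107 against 1030.3 to 1206, 11.0-fold higher. LAMB3, a chain of the laminin that this receptor binds, rose 5.25-fold. Of 41 further focal adhesion proteins 21 rose and 18 fell. CSRP1, a LIM protein of actin bundles, fell from 254 to 40.9 and TRIP6, a relative of zyxin, from between 115 and 133 per library to 0.613 in the mean. Among 14 regulators of integrin activation 4 rose and 10 fell, among them ITGB1BP1, which holds the ITGB1 tail inactive, from 235 to 65.6, DAB2 from 109 to 16.6 and CIB1 from 215 to 66.4. Integrin ligands were 8 higher and 10 lower of 19. TNC, tenascin C, a matrix ligand of ITGAV and ITGB1 pairs, read 1.42, 2.33 and 2.68 in SW480-P and 249, 259 and 254 in SW480-LM3, 118-fold higher. CDH1, E-cadherin, the ligand of the pair of ITGAE and ITGB7, rose 89.0-fold, from 1.67 to 148. NPNT, nephronectin, a ligand of integrins that pair with ITGB1, read 37.6 in the mean of SW480-P and 0.058, 0.117 and 0 in SW480-LM3. TRIP6 and NPNT passed the filter through the SW480-P libraries alone, so that they differed is partly set by the filter.

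In LX-2 cells, 14 of 32 tested integrin and focal adhesion genes were called lower with NID1 vesicles, 3 were called higher and 15 were not called. ITGA3 (log2 -0.78), a laminin receptor chain, fell most, and ITGAE (0.57), a chain best known from lymphocytes, rose most. The shares lower and higher were 43.8% and 9.38%, against 24.6% and 17.8% of all genes. The groups did not overlap in 24 of 32, 20 of them lower and 4 higher, against 55.9% of all genes, 32.5% lower and 23.4% higher. The median log2 fold change was -0.32, against -0.048 over all genes, in a range of -0.78 to 0.57. No member was called at a change of at least 1 on the log2 scale, which 1.22% of all genes reached downward and 0.557% upward. Of all called genes 41.9% were higher, a share that became 51.1% with quantile normalization, 51.2% with median-ratio scaling and 53.4% with GC and length trends removed. The members called under these 3 settings were 16, 15 and 15 lower and 3, 4 and 4 higher. Without EV-XP-NID1-LX-2 replicate 2, the library that was lowest in most members, 15 were lower and 4 higher.

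**Figure D2:**
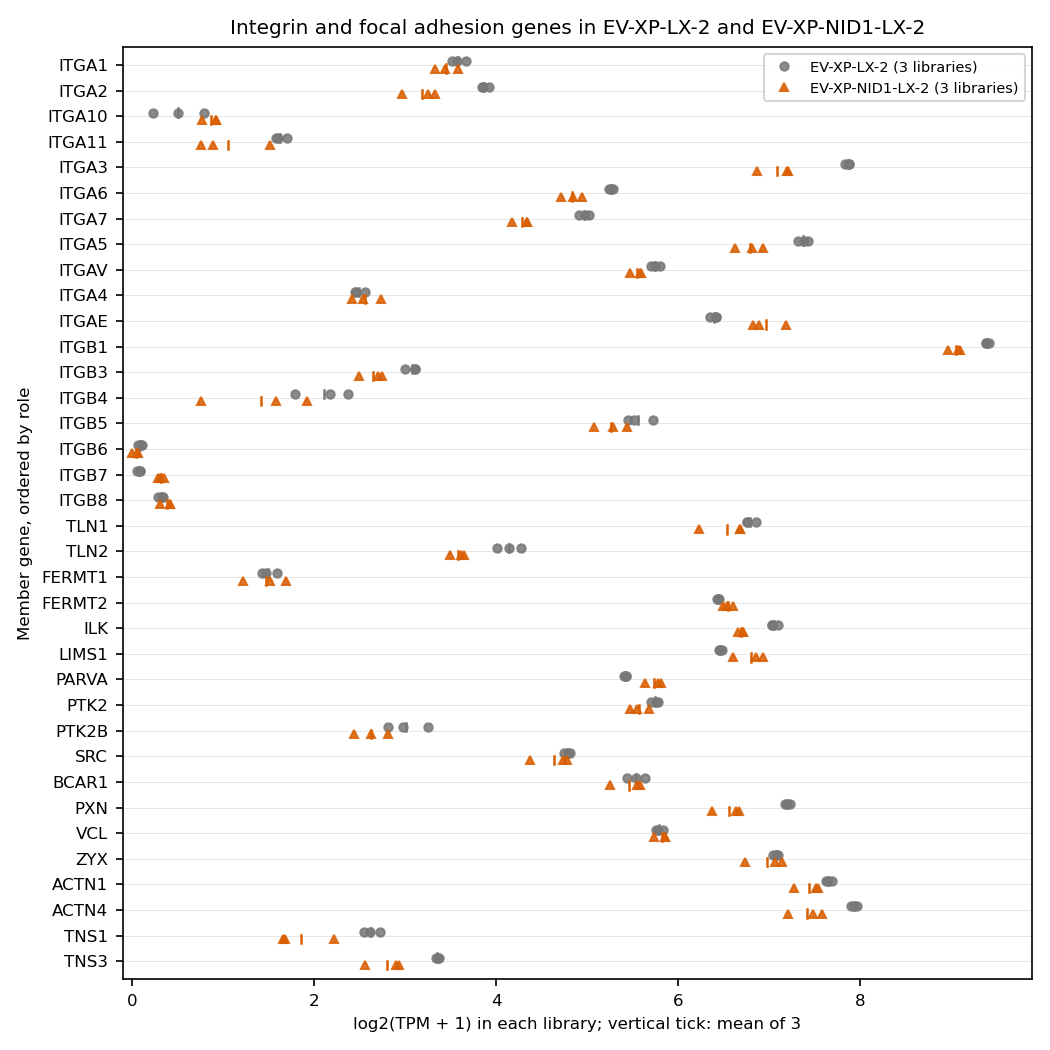
TPM of each integrin and focal adhesion gene in the 3 EV-XP-LX-2 libraries (grey circles) and the 3 EV-XP-NID1-LX-2 libraries (orange triangles), as log2 of TPM plus 1, with a tick at each group mean. ITGB1 went from 671 to 528 TPM and ITGA3 from 231 to 136 TPM, while ITGAE went from 82.9 to 124 TPM.

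All 3 laminin-binding alpha chains fell with NID1 vesicles. ITGA3, the most abundant alpha chain of these cells by TPM, read 233, 227 and 234 TPM under control vesicles and 146, 115 and 145 TPM with NID1 vesicles (log2 -0.78, SE 0.09, limma adjusted p = 0.000970). ITGA7 read 30.4, 29.1 and 31.4 against 19.2, 17.0 and 19.3 TPM (log2 -0.68, SE 0.07, adjusted p = 0.000576). ITGA6 read 37.5, 36.7 and 37.8 against 29.7, 25.1 and 27.7 TPM (log2 -0.43, SE 0.07, adjusted p = 0.00286). In each of them replicate 2 was the lowest library of its group, and the groups were apart without it too.

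Both RGD-binding chains fell as well. ITGA5, the fibronectin receptor chain of stellate cells, read 166, 158 and 171 TPM against 121, 97.5 and 111 TPM (log2 -0.59, SE 0.08, adjusted p = 0.00150). ITGAV read 51.0, 54.7 and 52.6 against 47.0, 43.5 and 47.0 TPM (log2 -0.20, SE 0.06, adjusted p = 0.0237). Removing any 1 of the EV-XP-LX-2 libraries ended the ITGAV call (adjusted p of 0.0505, 0.0915 and 0.0719 for replicates 1, 2 and 3), as did a replicate block (0.0615). Over all alternatives the adjusted p ran from 0.00209 to 0.0915. Among collagen-binding chains ITGA2 fell, from 13.4 to 14.1 TPM to 6.79 to 9.04 TPM (log2 -0.69, SE 0.11, adjusted p = 0.00243). ITGA1 overlapped between groups at 10.4 to 11.7 and 9.05 to 10.9 TPM. ITGA11, a collagen receptor chain of fibroblasts, read 2.00 to 2.26 against 0.690 to 1.86 TPM and was not called (adjusted p = 0.0585), whereas removing the third EV-XP-NID1-LX-2 library gave a call (adjusted p = 0.00812).

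ITGAE was the alpha chain that rose. It read 84.2, 84.4 and 80.3 TPM under control vesicles and 112, 144 and 117 TPM with NID1 vesicles (log2 0.57, SE 0.09, adjusted p = 0.00285). HASPIN, a kinase gene inside ITGAE on the opposite strand, read 19.8 to 21.8 and 18.6 to 21.4 TPM and was not called. Whether the counting used strand is not given in the sources used here, so reads of the pair may be mixed. ITGA4, which shares leukocyte expression with ITGAE, overlapped at 4.46 to 4.91 and 4.32 to 5.66 TPM. Of 7 leukocyte markers 6 had values and 2 were tested, of which CD68 fell, from 43.7 to 18.6 TPM. The list summed to 43.9 to 48.3 TPM in EV-XP-LX-2 and 16.8 to 23.1 TPM in EV-XP-NID1-LX-2, and its defining members PTPRC and CD3E each read 0.0367 TPM with control vesicles.

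ITGB1 and ITGB3 were the beta chains called lower. ITGB1 read 666, 665 and 681 TPM against 539, 499 and 547 TPM (log2 -0.35, SE 0.05, adjusted p = 0.00170). ITGB3, the partner of ITGAV on vitronectin and fibronectin, read 7.0, 7.62 and 7.60 against 5.49, 4.62 and 5.71 TPM (log2 -0.43, SE 0.10, adjusted p = 0.0123). ITGB5 did not overlap, at 42.8 to 51.7 and 32.8 to 42.3 TPM, but was not called (adjusted p = 0.0598). ITGB4 overlapped at 2.45 to 4.19 and 0.69 to 2.79 TPM. ITGB6, ITGB7 and ITGB8 stayed under 0.5 TPM in every LX-2 library and were not tested.

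The ILK complex moved in both directions in LX-2. ILK read 136, 129 and 129 TPM under control vesicles and 104, 100.1 and 103 TPM with NID1 vesicles (log2 -0.36, SE 0.04, adjusted p = 0.00107). PARVA read 42.0, 41.3 and 42.0 against 53.8, 48.5 and 55.1 TPM (log2 0.32, SE 0.06, adjusted p = 0.00523). LIMS1 read 86.7, 88.6 and 86.0 against 115, 95.9 and 121 TPM (log2 0.33, SE 0.08, adjusted p = 0.0168). The LIMS1 call ended in 4 of 16 alternatives: when the filter was dropped, and when the first EV-XP-NID1-LX-2 library, or the first or the third EV-XP-LX-2 library, was removed (adjusted p up to 0.0520, from a lowest of 0.000659). Its near-identical copy LIMS4 read 9.95 to 13.3 TPM against 13.8 to 18.7 TPM. TLN2 fell from 16.7 to 11.0 TPM (adjusted p = 0.00271), whereas TLN1, FERMT1 and FERMT2 were not called.

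PXN was the docking adaptor that fell. It read 149, 143 and 145 TPM under control vesicles and 101, 81.8 and 98.2 TPM with NID1 vesicles (log2 -0.64, SE 0.08, adjusted p = 0.00116). PTK2, PTK2B, SRC and BCAR1 were not called, at log2 fold changes of -0.18, -0.39, -0.15 and -0.08. Among actin linkers ACTN4 read 248, 244 and 237 TPM against 190.0, 146 and 177 TPM (log2 -0.51, SE 0.09, adjusted p = 0.00429). The tensins TNS1 and TNS3 fell from 5.20 to 2.68 and from 9.23 to 6.01 TPM (adjusted p = 0.00905 and 0.00764). VCL and ZYX overlapped between groups, VCL at 53.2 to 55.9 and 52.1 to 57.0 TPM and ZYX at 131 to 136 and 106 to 140 TPM. ACTN1 did not overlap but missed the threshold (adjusted p = 0.0542), and it was called in 7 of 16 alternatives, 2 of which removed EV-XP-NID1-LX-2 replicate 2 or replicate 3.

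Further adhesion genes of LX-2 are read against the 24.6% of all genes called lower and 17.8% called higher. Of 17 tested integrin ligands 13 fell and 1 rose. LTBP1, which holds latent TGF-beta in the matrix, fell from 30.8 to 15.2 TPM, TNC, tenascin C, from 50.9 to 25.9 TPM and COL4A1, a basement membrane collagen chain, from 67.7 to 44.4 TPM. Of 41 further focal adhesion proteins 14 fell and 5 rose, with the LIM protein PDLIM7 down from 164 to 73.2 TPM, the BCAR1 effector DOCK1 down from 21.9 to 15.3 TPM and the zyxin partner TES up from 43.8 to 56.6 TPM. Of 7 hemidesmosome genes 4 fell, with LAMB3 from 115 to 80.0 TPM. Among these 4, COL17A1 passed the filter through the EV-XP-LX-2 libraries alone, so that it differed is partly set by the filter. Among 12 regulators of activation 6 fell and 3 rose. SLC3A2, the CD98 heavy chain that binds beta tails, rose from 627 to 1046 TPM and the GTPase RAP1B, which recruits talin, from 383 to 540 TPM, while CIB1 fell from 89.5 to 68.2 TPM. Stellate and mesenchymal markers were called lower in 4 of 8 tested, and their summed TPM went from 2352 to 2520 per library to 1655 to 1964. Most of that sum was VIM, from 1887 to 1341 TPM. Among those not called were ACTA2 and TAGLN, at log2 fold changes of -0.20 and 0.06. The part of these markers in the changes of the integrin genes was not tested.

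In LV5-NID1, 7 of 29 tested members were called and 22 were not. The integrin chains ITGA1, ITGB1 and ITGB5 and the alpha-actinins ACTN1 and ACTN4 were lower, and FERMT1 and LIMS1 were higher. These 5 and 2 are 17.2% and 6.90%, against 9.32% and 7.27% of all genes. The groups did not overlap in 13 of 29, against 43.3% of all genes, with 11 lower and 2 higher against 21.6% and 21.7%. The median log2 fold change was -0.24, against 0.006 over all genes. No member was called at a change of at least 1 on the log2 scale, which 1.28% of all genes reached downward and 0.142% upward. Of all called genes 43.8% were higher, and 54.7% with quantile normalization, under which the members' counts stayed at 5 and 2. The counts rest on single libraries: 1 member was lower without LV5 replicate 2 and 1 without LV5-NID1 replicate 2, 2 without LV5 replicate 1, 5 without LV5 replicate 3, and 8 without LV5-NID1 replicate 3. Higher members numbered 1 without LV5 replicate 1 and 0 without LV5 replicate 2, LV5 replicate 3 or LV5-NID1 replicate 2. With a replicate block 2 were lower and 0 higher.

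**Figure D3:**
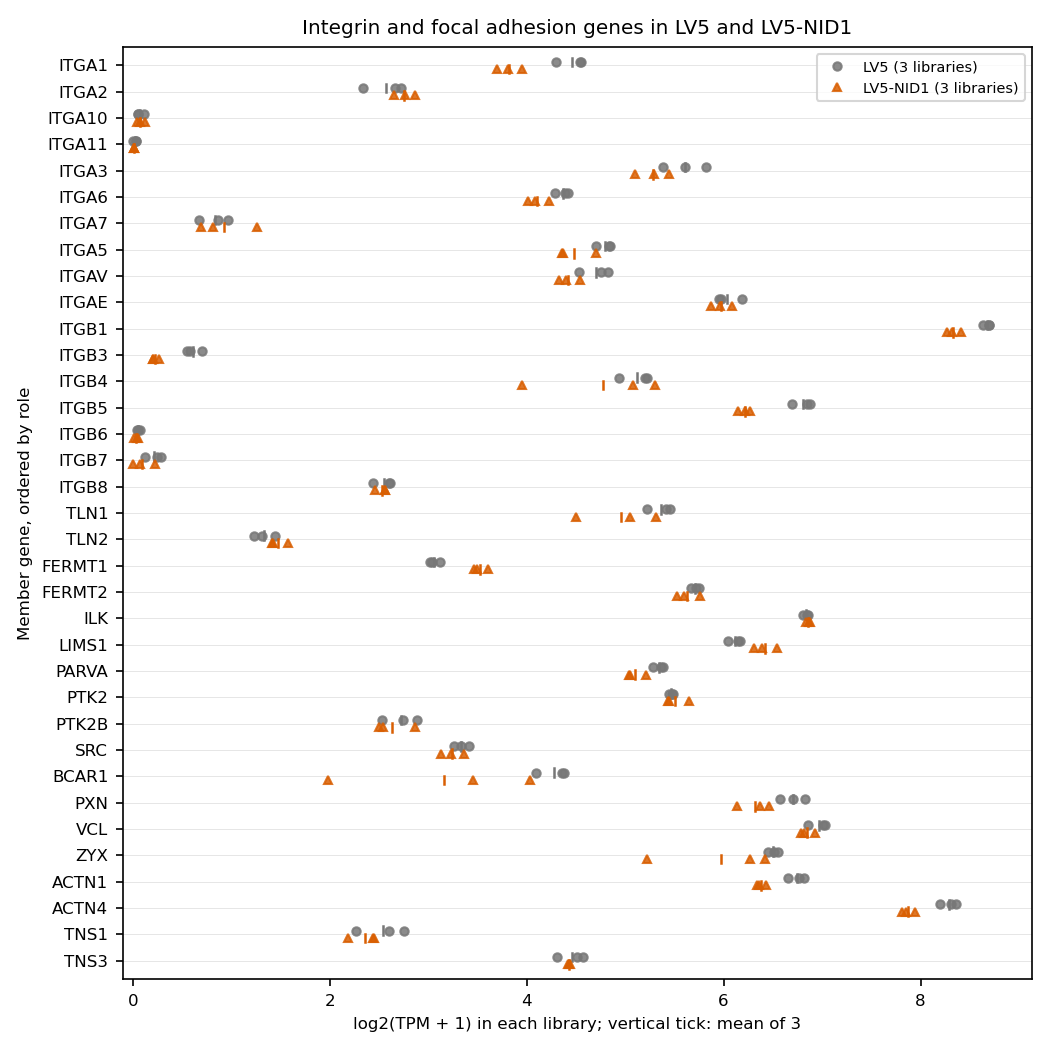
TPM of each integrin and focal adhesion gene in the 3 LV5 libraries (grey circles) and the 3 LV5-NID1 libraries (orange triangles), as log2 of TPM plus 1, with a tick at each group mean. ITGB5 went from 111 to 73.2 TPM, and single LV5-NID1 libraries lie far below the others in ITGB4, BCAR1 and ZYX.

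ITGB5 was the member with the steadiest difference in LV5-NID1. It read 114, 116 and 102 TPM in LV5 and 73.5, 69.9 and 76.2 TPM in LV5-NID1 (log2 -0.59, SE 0.07, limma adjusted p = 0.00515). It was called under each of the 16 alternatives that give a fold change (adjusted p = 0.00298 to 0.0381). ITGB1 read 414, 414 and 396 TPM against 307, 319 and 338 TPM (log2 -0.34, SE 0.05, adjusted p = 0.0114). ITGA1 read 22.4, 22.3 and 18.7 against 12.0, 13.0 and 14.5 TPM (log2 -0.64, SE 0.10, adjusted p = 0.0137), and PELO, which shares exons with it, read 12.4 to 13.3 TPM against 9.82 to 10.3 TPM. In all 3 genes every LV5-NID1 library lay below every LV5 library. The calls of ITGB1 and ITGA1 were lost without LV5 replicate 1, without LV5 replicate 2, without LV5-NID1 replicate 2 and with a replicate block, at adjusted p of 0.0538 to 0.0615 for ITGB1 and 0.0612 to 0.0642 for ITGA1.

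The remaining alpha chains were not called in LV5-NID1. ITGA6 read 18.5 to 20.4 TPM against 15.1 to 17.7 TPM without overlap (adjusted p = 0.0766), and ITGA5 read 25.1 to 27.8 against 19.6 to 25.04 TPM (adjusted p = 0.0963). Without LV5-NID1 replicate 3 both were called lower (adjusted p = 0.0268 and 0.00937). ITGA2, ITGA3, ITGAV and ITGAE overlapped between groups. ITGB3 read 0.470 to 0.630 TPM in LV5 and 0.150 to 0.200 TPM in LV5-NID1, under the filter.

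FERMT1 and LIMS1 were the members called higher. FERMT1 read 7.68, 7.20 and 7.13 TPM in LV5 and 10.3, 10.04 and 11.2 TPM in LV5-NID1 (log2 0.46, SE 0.07, adjusted p = 0.0133), while FERMT2 overlapped at 49.9 to 52.8 and 45.03 to 53.2 TPM. The FERMT1 call was lost without LV5 replicate 2 or 3, without LV5-NID1 replicate 2 and with a replicate block, at adjusted p of 0.0503 to 0.0636. LIMS1 read 69.9, 70.6 and 65.1 against 78.3, 82.9 and 92.3 TPM (log2 0.30, SE 0.08, adjusted p = 0.0465), and 8 of 16 alternatives lost it, among them each removal of an LV5 library and that of LV5-NID1 replicate 2 (range 0.0133 to 0.131). ILK, their partner at the beta tail, read 111 to 115 and 113 to 116 TPM.

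The alpha-actinins fell in LV5-NID1. ACTN1 read 108, 112 and 99.6 TPM against 80.9, 80.1 and 85.1 TPM (log2 -0.37, SE 0.06, adjusted p = 0.0143), and ACTN4 read 327, 316 and 293 against 245, 224 and 230.3 TPM (log2 -0.42, SE 0.06, adjusted p = 0.0102). Neither had overlapping groups. Both calls were lost without LV5 replicate 2 and without LV5-NID1 replicate 2, that of ACTN1 also without LV5 replicate 1 and with a replicate block, and that of ACTN4 with GC and length trends removed (log2 -0.23, adjusted p = 0.123). The highest adjusted p over alternatives was 0.0662 for ACTN1. PARVA and PXN did not overlap but missed the threshold (log2 -0.24 and -0.38, adjusted p = 0.0627 and 0.0579). PTK2, PTK2B, SRC, TLN1, TLN2, VCL, TNS1, TNS3 and ITGB8 overlapped between groups, at log2 fold changes of -0.41 for TLN1 to 0.14 for TLN2. ITGA7, ITGA10, ITGA11, ITGB6 and ITGB7 were too low to be tested in these libraries.

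Several members were lowest in LV5-NID1 replicate 3, far below replicate 1. BCAR1 read 19.8, 19.5 and 16.03 TPM in LV5 and 15.4, 10 and 2.95 TPM in LV5-NID1 (log2 -1.12, SE 0.50, adjusted p = 0.172). ZYX read 93.1, 89.9 and 86.2 against 84.6, 76.0 and 36.4 TPM (log2 -0.53, SE 0.31, adjusted p = 0.266). ITGB4 read 35.7, 36.2 and 29.5 against 38.6, 32.8 and 14.4 TPM (log2 -0.34, SE 0.35, adjusted p = 0.521), and without that library its log2 fold change was 0.08. None of the 3 was called. Their transcripts hold 63.1%, 64.9% and 63.7% G and C, and that library is the one whose deviation ran against GC content. FERMT2, at 36.3%, instead read highest there, 53.2 TPM against 45.03 and 47.5 TPM in replicates 1 and 2. The part of GC content in these values was not tested beyond the fit with its trend removed, where ITGB4 was at log2 0.05. BCAR1 and ZYX stayed lower in every alternative, that fit among them, and were called in none. Their log2 fold changes ran from -1.56 to -0.53 for BCAR1 and from -0.76 to -0.07 for ZYX.

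Further adhesion genes of LV5-NID1 are read against the 9.32% of all genes called lower and 7.27% called higher. Of 41 further focal adhesion proteins 14 fell, 1 rose and 26 were not called, with CSRP1 from 386 to 234 TPM, PALLD, palladin, from 76.0 to 46.6 TPM and FHL2 from 226 to 138 TPM. Among 13 regulators of activation 3 fell and 0 rose by limma: DAB2 from 181 to 117 TPM, SLC3A2 from 523 to 405 TPM and the tetraspanin CD9 from 117 to 97.3 TPM. Of 15 tested ligands 10 fell and 1, NID1 itself, rose, and NID1 passed the filter through the LV5-NID1 libraries alone. VTN, vitronectin, the ligand of ITGB5, fell from 9.78 to 2.34 TPM and FBN1, fibrillin 1, from 41.2 to 23.9 TPM. Of 5 tested hemidesmosome genes LAMB3 fell from 30.5 to 17.2 TPM and DST from 44.3 to 33.1 TPM. Epithelial markers had 3 lower and 1 higher of 4 tested, and their summed TPM went from 1633 to 1671 per library to 927 to 988. Most of that sum was KRT8, from 780 to 411 TPM, and KRT18, from 861 to 546 TPM, while EPCAM rose from 5.03 to 9.05 TPM. KRT19, the third lower marker, passed the filter through the LV5 libraries alone, so that it differed is partly set by the filter. The part of these markers in the changes of the integrin genes was not tested.

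Since TPM is corrected for length, the make-up of the integrin chains can be described in the LX-2 and LV5 groups. The 7 beta chains summed to 728 ± 6.62 TPM under control vesicles and 574 ± 31.3 TPM with NID1 vesicles (SD, n = 3), and ITGB1 held 92.1% of that sum in both. In LV5 they summed to 558 ± 21.3 TPM, and to 428 ± 4.80 TPM in LV5-NID1. There ITGB1 held 73.1 ± 0.970% and then 75.0 ± 2.74%, ITGB5 19.9 ± 0.594% and then 17.1 ± 0.632%, and ITGB4 6.05 ± 0.447% and then 6.70 ± 3.01%. So ITGB1 led in all 4 groups, followed by ITGB5. These shares are given as descriptions, with no test.

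**Figure D4:**
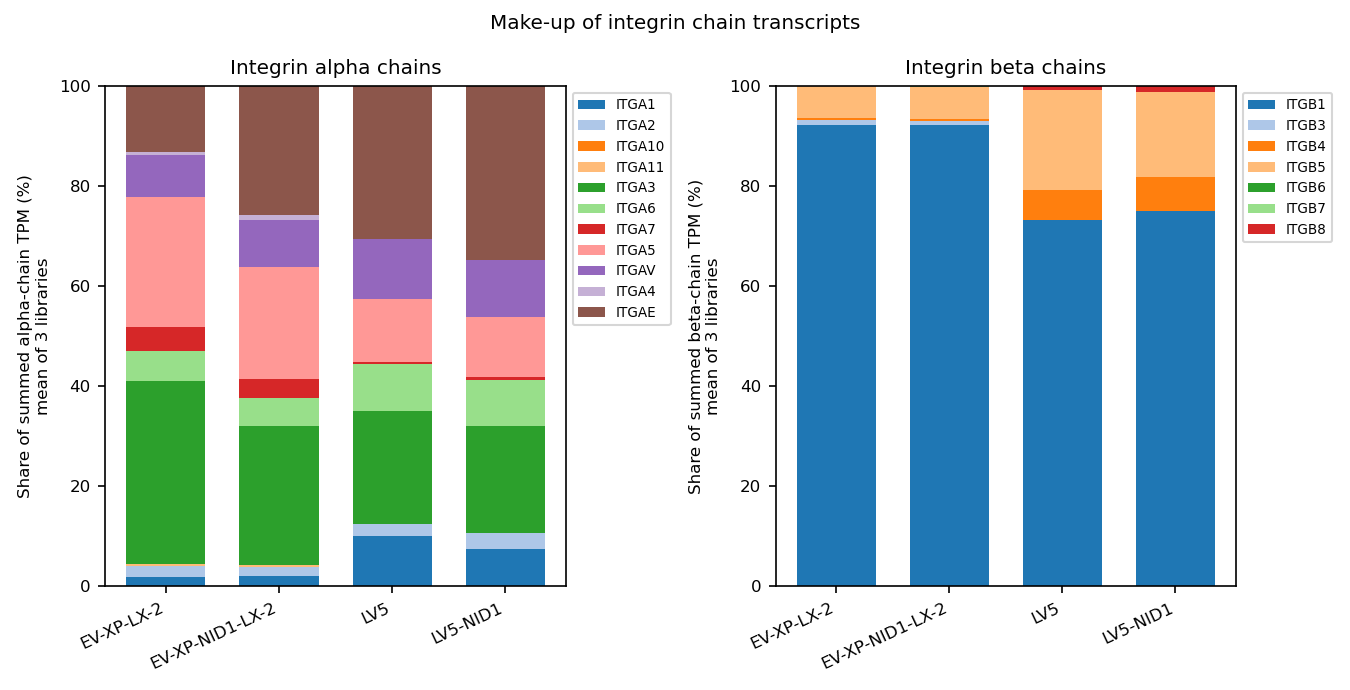
Share of each chain in the summed TPM of integrin alpha chains (left) and beta chains (right), as means of 3 libraries per group in percent. ITGB1 holds 92.1% of beta chain TPM in both LX-2 groups and 73.1% in LV5, and ITGAE takes 13.1% of alpha chain TPM in EV-XP-LX-2 and 25.7% in EV-XP-NID1-LX-2.

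Alpha chains were spread more evenly. They summed to 631 ± 8.36 TPM in LX-2 under control vesicles and 487 ± 19.9 TPM with NID1 vesicles. ITGA3 held 36.7 ± 0.167% and then 27.8 ± 2.59% of this sum, ITGA5 26.1 ± 0.662% and then 22.5 ± 1.52%, and ITGAE 13.1 ± 0.511% and then 25.7 ± 4.67%. ITGA5 stood above ITGAE with control vesicles, and with NID1 vesicles the spread of ITGAE overlapped those of ITGA3 and ITGA5. ITGAE was highest in EV-XP-NID1-LX-2 replicate 2, at 144 TPM against 112 and 117 TPM in replicates 1 and 3. In LV5, where 10 alpha chains had values, the sum was 211 ± 9.07 TPM, and 178 ± 7.63 TPM in LV5-NID1. ITGAE held 30.7 ± 4.17% and 34.8 ± 1.60% of it, ITGA3 22.7 ± 2.51% and 21.4 ± 3.38%, ITGA5 12.7 ± 0.272% and 12.0 ± 1.23%, and ITGAV 11.9 ± 0.787% and 11.5 ± 0.441%. ITGA1 went from 9.98 ± 0.646% to 7.38 ± 0.422%.

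Control LX-2 and LV5 libraries differed in which chains they carried. The 2 tables were normalized separately, so their levels are set side by side without a test. Of 35 members in both, 23 were higher in every LX-2 library, 9 in every LV5 library, and ITGB6, PTK2B and TNS1 overlapped. The share of all genes that differ in this way was not counted, so these counts are not read as particular to the members. ITGA7 was 38.2-fold higher in LX-2 (30.3 against 0.793 TPM), ITGB3 13.9-fold, TLN2 11.0-fold and ITGA5 6.15-fold. ITGB8 was 19.5-fold higher in LV5 (4.88 against 0.250 TPM), ITGB4 read 33.8 against 3.38 TPM, and FERMT1 was 4.01-fold higher. PARVA, at 41.8 and 39.7 TPM, and ILK, at 132 and 113 TPM, were close to each other in the 2 lines.

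The 3 comparisons share no libraries, and 28 members were tested in all of them. ITGB1 was the 1 member called lower in each, by 1.36, 0.35 and 0.34 on the log2 scale in SW480-LM3, EV-XP-NID1-LX-2 and LV5-NID1. ACTN4 and ITGB1 were lower in both EV-XP-NID1-LX-2 and LV5-NID1, and LIMS1 was higher in both. ACTN4, ITGA5, ITGA6, PXN, TLN2 and TNS3 were lower in EV-XP-NID1-LX-2 and higher in SW480-LM3, whereas ITGA3, ITGAV and ITGB1 were lower in both. How many of all genes share calls in these ways was not counted. With GC and length trends removed, PXN was called lower in SW480-LM3 (log2 -0.38) and TLN2 stood at -0.13. Some alternatives ended the calls of ITGAV in EV-XP-NID1-LX-2, of ITGB1 and ACTN4 in LV5-NID1, and of LIMS1 in both comparisons. Whether an effect differs between comparisons was not tested, since the tables differ in unit and line.

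**Figure D5:**
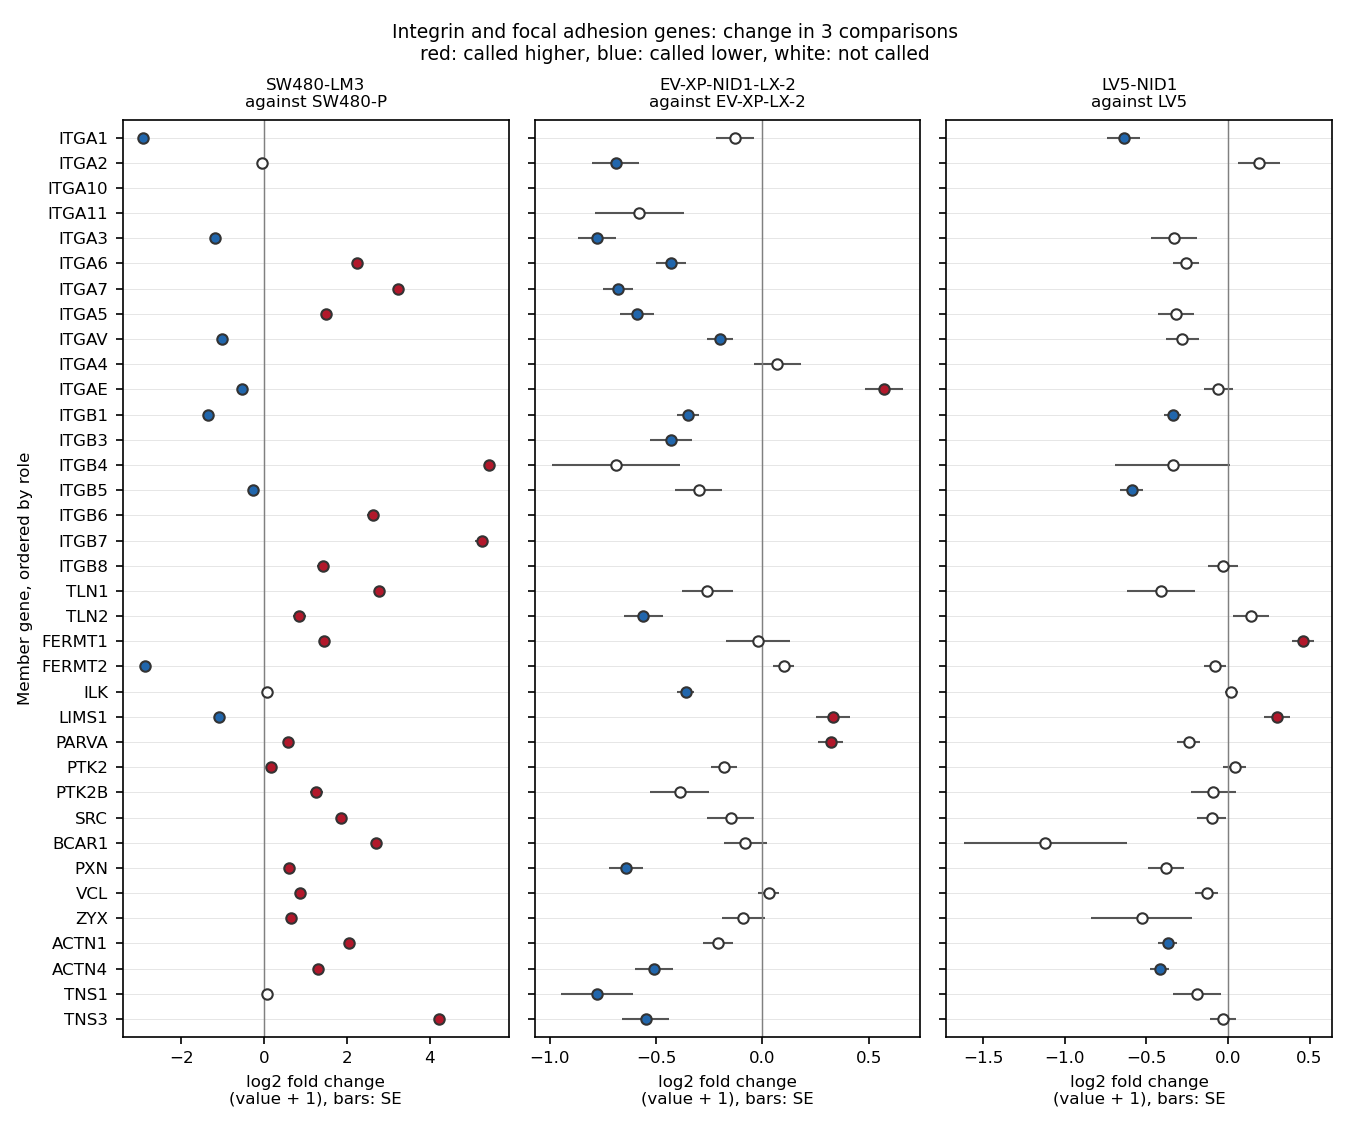
Log2 fold change of each tested integrin and focal adhesion gene in the 3 comparisons (on the value plus 1), with SE as bars (hidden behind most points in the left panel), filled red where called higher, blue where called lower and white where not called; the axes differ in scale. The range is -2.92 to 5.43 in SW480-LM3, -0.78 to 0.57 in EV-XP-NID1-LX-2 and -1.12 to 0.46 in LV5-NID1.

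Reads can be shared with neighbours for many of these genes. In GENCODE v29, 23 of the 36 members have an exon that overlaps an exon of another gene. ITGB7, for example, overlaps ZNF740, a zinc finger gene that read 54.3 in SW480-P and 67.0 in SW480-LM3 while ITGB7 rose 98.0-fold. PXN-AS1, antisense to PXN, fell from 13.0 to 2.01 in SW480-LM3 where PXN rose. CREB3, which overlaps TLN1, fell from 45.5 to 34.2 there, and AP3M1, which overlaps VCL, from 151 to 113.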

How the data were processed

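Per the labels, poly(A) RNA of 18 human cell line libraries was sequenced. The submitters' processing notes name HISAT2 2.1.0 and Bowtie2 2.3.5 without a role, and the sources used here do not give the counter, build or annotation. The values deposited for SW480-P and SW480-LM3 are a signal, read counts divided by 1 factor per library: 100% of values were whole reads within 0.05 read. The values deposited for the LX-2 and LV5 groups are TPM, scaled to 1 common total per library. Gene identifiers matched GENCODE v29 for 97.16%, 95.75% and 95.01% of genes.

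Each comparison was fitted on its own table, 3 libraries against 3, with limma 3.58.1 (R 4.3.3) and a variance trend on log2(value + 1), keeping genes that reached 1 in at least 3 libraries. A call is a Benjamini-Hochberg adjusted p under 0.05 over all genes tested (14527, 15802 and 15508). Fold changes on this scale understate those of low genes, and folds in the text are ratios of group means. On the recovered reads edgeR 4.0.16 (quasi-likelihood) called 6309 genes higher and 6378 lower and DESeq2 1.42.0 called 6116 and 6270, where limma called 6376 and 6373. The limma fit was tested on simulated data with known changes. Alternatives were a pseudocount of 0.1 or 5, every gene kept, only genes with a mean of at least 5, other scalings, no variance trend, a replicate block, a log2 fold change of at least 1 and each library left out. All 36 members are named, and of each further list up to 3 called genes with the smallest adjusted p, some of which are not reported here. The members and lists were chosen with earlier results of these data known. Same-numbered libraries of compared groups were hardly alike (r of -0.047 to 0.063), so numbers were not read as pairs.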

Additional observations from a re-analysis of the deposited data

How the results depend on the processing

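Over 15 to 17 alternatives a member, 25 of 32 tested members kept their direction and call in SW480-LM3, 16 of 32 in EV-XP-NID1-LX-2 and 9 of 29 in LV5-NID1. Removal of trends with GC content and length was added after the data were seen. Same-numbered libraries did not pair, and a replicate block left 890 genes called in LV5-NID1 in place of 2572, with 2 members lower and 0 higher in place of 5 and 2. In the other comparisons the block changed only the call of ITGAV in EV-XP-NID1-LX-2.

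When calls also needed a log2 fold change of 1 or more in size, 6592, 280 and 220 genes were called in SW480-LM3, EV-XP-NID1-LX-2 and LV5-NID1 in place of 12749, 6687 and 2572, with 0 members higher and 0 lower in the last 2. With no low filter LV5-NID1 had 1532 called genes and 1 higher member. It also had 1 higher member without a variance trend and 1 without mitochondrial genes, and 9 lower members with GC and length trends removed. Leaving out a library gave 713 to 3325 called genes in LV5-NID1, 0 to 2 members higher and 1 to 8 lower.

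Directions turned for these members, none of them called in the setting except PXN, ITGA2, TNS1 and BCAR1. In SW480-LM3 with GC and length trends removed, the log2 fold change was -0.38 for PXN, -0.13 for TLN2, -0.07 for ILK and -1.11 for TNS1. With library-total scaling it was 0.02 for ITGB5 and 0.22 for ITGA2. TNS1 was also at -0.16 with quantile normalization and -0.03 without SW480-P replicate 3 (leaving out a library gave -0.03 to 0.12).

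In EV-XP-NID1-LX-2 with GC and length trends removed it was 0.15 for BCAR1, 0.06 for FERMT1, 0.12 for ZYX and 0.05 for SRC. Leaving out a library gave -0.14 to 0.03 for BCAR1, -0.13 to 0.11 for FERMT1, -0.17 to 0.03 for ZYX and -0.02 to 0.15 for ITGA4. FERMT1 was at 0.07 with quantile normalization, 0.02 with median-ratio scaling and 0.02 without EV-XP-LX-2 replicate 1. ITGA1 was at 0.00 with quantile normalization and VCL at -0.01 without mitochondrial genes.

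In LV5-NID1 with GC and length trends removed it was 0.02 for ITGAE, 0.01 for PTK2B, 0.05 for ITGB4, 0.05 for TNS3 and 0.12 for SRC. With quantile normalization ITGAE, ITGB8 and TNS3 were each at 0.02. Leaving out a library gave -0.12 to 0.01 for ITGAE, -0.08 to 0.01 for ITGB8, -0.11 to 0.02 for TNS3, -0.60 to 0.08 for ITGB4 and -0.03 to 0.08 for PTK2. The cause of these turns was not tested. TPM gives no depth, and groups of 3 limit every comparison.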
